A study of Mus musculus with 12 samples.

Results

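The comparison asked what an inhibitor of FGF receptor 4 (FGFR4) added to gene expression in Hep3B tumors already under lenvatinib. Tumors given H3B-6527 and lenvatinib together, called the combination here, were set against tumors given lenvatinib alone. Membership followed the treatment labels, which gave 3 tumors a side, 6 of the 12 tumors in the series, and every gene in the table was used. Hep3B is a human hepatocellular carcinoma line. It was grown under the skin of the right flank of female BALB/c nu/nu mice about 8 weeks old, from 0.1 mL of cells in Matrigel, and nude mice lack T cells. Dosing began at a mean tumor volume near 500 mm3, by oral gavage once daily. The lenvatinib group received 10 mg/kg, and the combination group received 10 mg/kg lenvatinib with 300 mg/kg H3B-6527. All tumors were collected 8 hours after dose 4. The other groups, used only where named, were vehicle and H3B-6527 alone at 300 mg/kg, also 3 tumors each. Each tumor came from its own mouse, all from 1 cell line, and RNA was taken from a fragment of the tumor.

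FGFR4 is the hepatocyte receptor for FGF19, a hormone released by the gut after bile acids are absorbed. It needs the co-receptor beta-klotho (KLB), signals through RAS and the MAP kinases ERK, and represses CYP7A1, whose enzyme controls the rate at which hepatocytes turn cholesterol into bile acids. Some liver cancers, Hep3B among them, make FGF19 themselves and depend on the receptor. H3B-6527 is a selective FGFR4 inhibitor, whereas lenvatinib blocks VEGF receptors, FGF receptors, PDGFRA, KIT and RET.

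Library totals were 31.3 to 37.1 M counts with lenvatinib and 31.0 to 40.9 M with the combination. Values below are normalised read counts (CPM, on scaled library sizes) in replicates 1, 2 and 3 of a group, and fold changes are log2 values ± SE from edgeR's quasi-likelihood test, adjusted over 15836 genes, with 3 tumors a group. On the first principal component, which held 70.1% of the variance of the 6 tumors, lenvatinib tumors lay between -51.8 and -35.0 and combination tumors between 30.1 and 53.8. Lenvatinib replicate 1 and combination replicate 3 lay nearest the other group. Where list counts are given below with 1 tumor left out, it is 1 of these 6. All 10 markers of hepatocyte-like tumor cells were expressed. Their summed level was 95070 to 115753 CPM with lenvatinib and 168686 to 190006 CPM with the combination, and albumin took 4.15 ± 0.49% and 7.31 ± 0.43% of counts (SD, n = 3). The 10 did not all rise. At an adjusted p under 0.05 by edgeR 7 rose and 1 fell, against 19.1% and 20.9% of all genes, and 2 did neither. Mean KRT18 was 571 CPM with lenvatinib and 378 CPM with the combination, and mean APOB was 26201.5 and 25032.2 CPM. Markers of the host's cells were looked up as human symbols, because the table names human genes although the labels give the organism as mouse. Whether mouse reads were removed is not given in the sources used here. Of 14 endothelial markers, 12 were under 1 CPM in all 12 tumors, with 0 and 1 pooled counts of CDH5 and 0 and 4 of KDR in the lenvatinib and combination groups. The defining fibroblast gene DCN had 0 and 5 counts. The 5 adipocyte markers summed to 7.18 to 10.8 CPM with lenvatinib and 37.1 to 54.6 CPM with the combination, through PLIN1 (574 and 4085 counts), while CIDEC had 358 and 392, ADIPOQ 2 and 1 and FABP4 0 and 1. The neutrophil sum of 29.4 to 38.3 CPM against 74.1 to 75.4 CPM rested on CSF3R. Fibroblast markers summed to 332 to 380 CPM with lenvatinib and 148 to 210.1 CPM with the combination, nearly all of it from FBLN1 and PDGFRA. The mitochondrial share of counts was 0.0139 to 0.0181% and 0.0154 to 0.0191%. In bulk tumor RNA, fewer cells of a type and less RNA per cell cannot be told apart.

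Adding H3B-6527 raised 3020 genes (19.1% of those tested) and lowered 3309 (20.9%) at an adjusted p under 0.05 by edgeR, and 975 of the rises and 849 of the falls were at least 2-fold. The shares of 19.1% and 20.9% are the background for the counts of rises and falls in each list below. The median over all tested genes was -0.00456. With scaling by library totals alone the median of all genes shifted by -0.10, and the calls became 2293 higher and 4348 lower, a higher share of 34.5% in place of 47.7%. No gene called in both settings, or in any alternative tried, changed direction. All 3 combination tumors lay above all 3 lenvatinib tumors for 4312 genes and below them for 4710, together 57.0% of those tested. Genes named from the lists below were mostly those with the smallest p in this same comparison. Separate groups were therefore likely for them, and where stated they are a description and not further support.

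By the naming rule the 15 leading rises were CYP7A1, PPP1R1A, CYP3A7, GSTA1, FETUB, MYH4, C1S, HRG, SLC13A2, AKR1D1, ENHO, CFHR4, ADH1B, SCN7A and ETNK2, with log2 fold changes from 6.49 ± 0.65 (CYP7A1) to 3.57 ± 0.48 (ETNK2). CYP3A7, the fetal liver member of the CYP3A enzymes, stood at 14.6, 10.7 and 14.0 CPM with lenvatinib and at 958, 1150.3 and 431 CPM with the combination. FETUB, a liver-made protease inhibitor of the fetuin family, stood at 4.25, 4.49 and 2.74 against 102, 109 and 56.2 CPM. Separate groups were required by the naming rule, and combination replicate 3 was the lowest of the 3 for both genes. Counts of CYP3A7, GSTA1, CFHR4 and ADH1B could be shared with near-identical paralogs, and those values are uncertain to that extent. MYH4, a muscle myosin, had 33 pooled counts with lenvatinib and 693 with the combination, and it alone carried the rise of the 8 skeletal muscle markers from 1.92 to 2.85 CPM in sum to 6.02 to 12.05 CPM. The larger of the other members did not rise with it: ACTA1 had 64 and 56 counts, CKM 120 and 79, and MYH2 19 and 6.

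**Figure D1:**
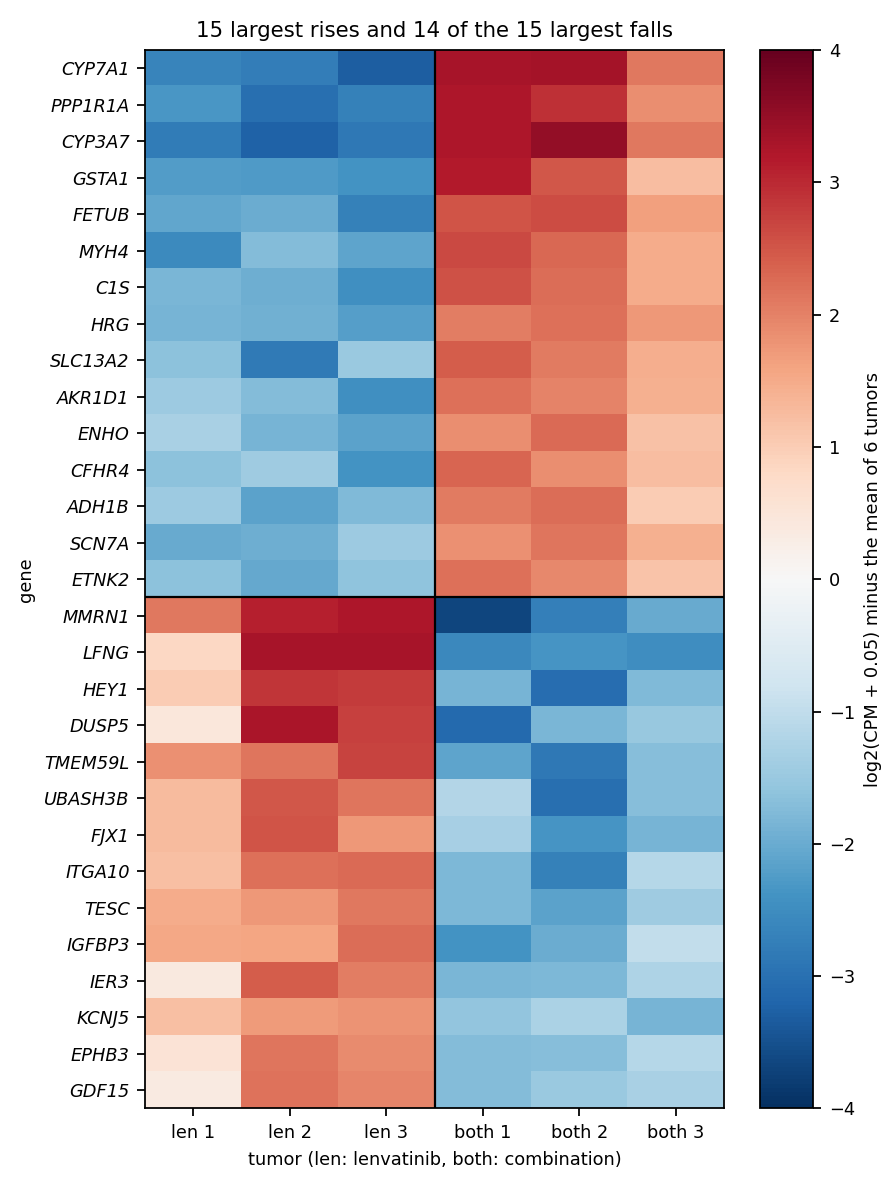
Heat map of the 15 largest rises and 14 of the 15 largest falls (rows) in the 3 lenvatinib (len) and 3 combination (both) tumors (columns), as log2(CPM + 0.05) minus the mean of the 6 tumors. The naming rule took only genes whose groups did not overlap. Lenvatinib replicate 1 and combination replicate 3 are paler than the rest of their groups for many rows.

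Among the 15 leading falls were MMRN1, LFNG, HEY1, DUSP5, TMEM59L, UBASH3B, FJX1, ITGA10, TESC, IGFBP3, IER3, KCNJ5, EPHB3 and GDF15, from -5.95 ± 0.56 (MMRN1) to -3.19 ± 0.40 (GDF15). IGFBP3, a binding protein of insulin-like growth factors, stood at 73.5, 74.7 and 119.5 CPM with lenvatinib and 4.74, 6.39 and 12.6 CPM with the combination. LFNG, a fringe glycosyltransferase that modifies Notch receptors, stood at 6.47, 36.0 and 35.6 against 0.569, 0.656 and 0.610 CPM. GDF15, a stress-induced cytokine, stood at 14.9, 52.5 and 44.5 against 3.38, 4.11 and 4.67 CPM. The naming rule required separate groups here too. For LFNG and GDF15 lenvatinib replicate 1 was well under its 2 companions.

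Beginning with the receptor system itself, the target's own transcript moved little while its co-receptor rose and another FGF receptor fell. FGFR4 stood at 146, 156 and 143 CPM with lenvatinib and at 125, 132 and 135 CPM with the combination. All 3 combination tumors were lower, but the change of -0.18 ± 0.10 missed the threshold (adjusted p = 0.170) and passed it with library totals (adjusted p = 0.0421). KLB stood at 62.0, 55.7 and 56.9 against 209.7, 215 and 171 CPM, a rise of 1.77 ± 0.20 (adjusted p = 8.08e-05) seen in every combination tumor. FGF19, the ligand, stood at 2.55, 3.30 and 2.49 against 1.23, 2.07 and 2.51 CPM. These values overlapped, with a log2 change of -0.51 ± 0.38 (adjusted p = 0.316). FGFR1 stood at 25.7, 37.8 and 43.1 against 4.46, 3.35 and 5.21 CPM and fell by 3.02 ± 0.33 (adjusted p = 6.99e-05), without overlap. FGFR2 fell by 0.77 ± 0.17. Of 11 tested genes of this axis, 3 were higher and 3 lower, against 19.1% and 20.9% of all genes, and their median was -0.18. There were 5 lower when lenvatinib replicate 2 or combination replicate 3 was left out or with library totals.

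Inhibitors of receptor and RAS signaling, several of them feedback inhibitors that ERK signaling induces, were mostly lower with the combination. In the list of Sprouty, SPRED and other inhibitors, 8 of 11 tested members fell and 0 rose, against 20.9% and 19.1% of all genes. The median was -1.05, and each alternative gave 8. SPRY1, an inhibitor of receptor-to-RAS signaling, stood at 14.6, 25.8 and 21.2 CPM with lenvatinib and 3.04, 3.21 and 4.44 CPM with the combination (-2.51 ± 0.25, adjusted p = 3.73e-05). SPRY4 stood at 1.18, 3.95 and 3.54 against 0.221, 0.345 and 0.610 CPM (-2.83 ± 0.51, adjusted p = 0.00116). SPRED1, which brings the RAS inhibitor neurofibromin to the membrane, fell by 2.13 ± 0.19 and SPRY2 fell by 1.30 ± 0.22. The groups did not overlap for any of the 8, and lenvatinib replicate 1 was the lowest lenvatinib tumor for SPRY1 and SPRY4.

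The MAP kinase phosphatases, which remove the activating phosphates from ERK and its relatives, did not move as a block. DUSP6, the cytoplasmic ERK phosphatase, stood at 62.0, 97.9 and 92.9 CPM with lenvatinib and 6.04, 9.71 and 15.8 CPM with the combination, a log2 change of -2.99 ± 0.36 (adjusted p = 0.000123). DUSP5, its nuclear counterpart, stood at 6.57, 46.4 and 32.4 against 0.506, 1.31 and 1.63 CPM and fell by 4.60 ± 0.66. DUSP9 stood at 97.8, 93.5 and 69.5 against 167, 184 and 156 CPM, a rise of 0.96 ± 0.13 (adjusted p = 0.000192). Every combination tumor lay outside the lenvatinib range for these 3 genes, below it for DUSP6 and DUSP5 and above it for DUSP9. DUSP4 (-1.53 ± 0.42, adjusted p = 0.0121, and 0.0504 without lenvatinib replicate 2) completed 3 falls among 9 tested. DUSP1 was the other of 2 rises, and it lost the call when lenvatinib replicate 1 or 2 or any 1 combination tumor was left out (adjusted p from 0.0605 to 0.173), without the expression filter (adjusted p = 0.114) and with library totals (adjusted p = 0.144).

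Transcription factors downstream of ERK and cyclin D1 gave 10 falls and 0 rises among 11 tested, with a median of -1.52 and 7 to 10 falls when 1 tumor was left out. ETV5, an ETS factor of the PEA3 group, stood at 31.8, 54.3 and 46.7 CPM with lenvatinib and 4.43, 7.15 and 11.02 CPM with the combination (-2.54 ± 0.27, adjusted p = 6.15e-05). MYC, the growth-promoting transcription factor, stood at 36.5, 53.2 and 46.5 against 11.7, 14.3 and 15.3 CPM (-1.72 ± 0.17, adjusted p = 2.27e-05). CCND1, the G1 cyclin, stood at 43.1, 53.9 and 31.4 against 16.3, 15.9 and 18.8 CPM (-1.33 ± 0.21). Groups were separate for all 3, and within the combination group ETV5 was highest in replicate 3. IER3 and ETV4 changed by -3.45 ± 0.43 and -2.26 ± 0.43. EGR1 ranged widely, from 49.0 to 122 CPM with lenvatinib and from 3.32 to 31.4 CPM with the combination. Its change of -2.47 ± 0.67 (adjusted p = 0.0142) lost the call without combination replicate 2 (adjusted p = 0.0509) and with the 2 groups fitted alone (adjusted p = 0.0845).

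Among 22 immediate early genes, which respond within minutes to growth factors, 14 fell and 0 rose (median -0.94). FOS stood at 7.31, 12.1 and 13.3 CPM with lenvatinib and 0.822, 2.45 and 2.41 CPM with the combination (-2.51 ± 0.33). CYR61, a matricellular protein also counted among the YAP targets, stood at 13.1, 18.3 and 19.7 against 5.00, 4.80 and 4.72 CPM (-1.81 ± 0.15, adjusted p = 1.07e-05). NR4A1, an orphan nuclear receptor, stood at 2.11, 5.52 and 6.08 against 0.980, 0.760 and 0.940 CPM (-2.34 ± 0.33). Combination tumors were below all lenvatinib tumors for each.

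**Figure D2:**
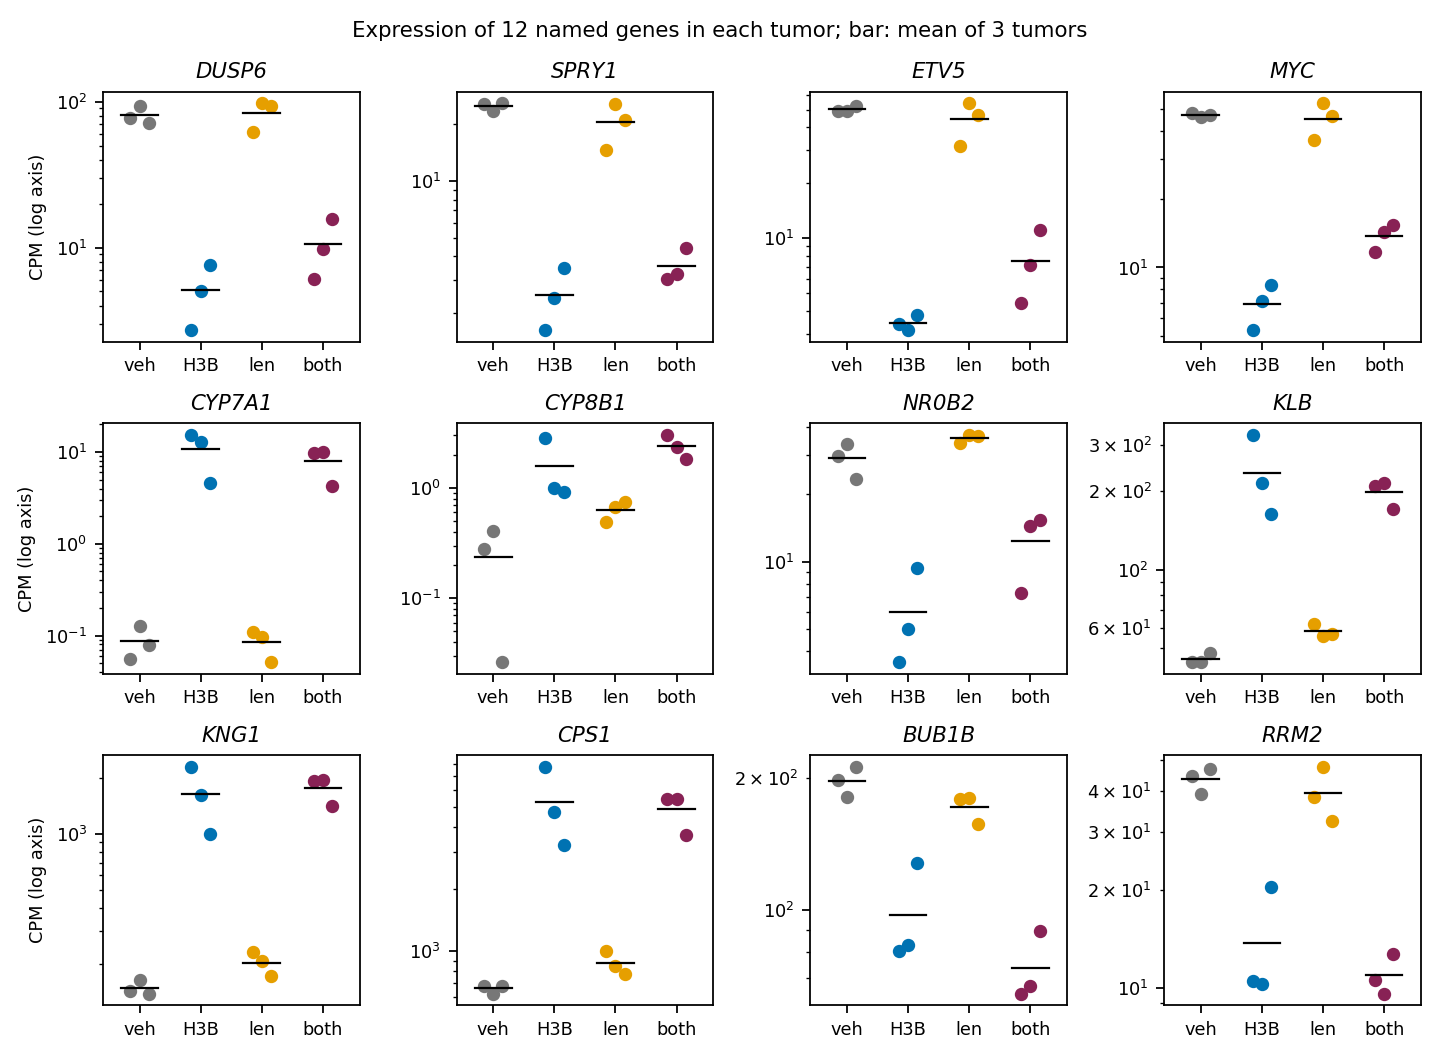
CPM of 12 named genes (log axis) in each of the 12 tumors: vehicle (veh), H3B-6527 (H3B), lenvatinib (len) and combination (both), with a bar at the mean of 3 tumors. For each gene the 3 combination points lie on one side of the 3 lenvatinib points, as CYP7A1 shows at 4.29 to 9.88 CPM against 0.0513 to 0.110 CPM.

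Transcripts of bile acid synthesis, the classical target of FGFR4 signaling in hepatocytes, were mostly higher with the combination. Of 16 tested enzymes and cofactors 10 rose and 0 fell, with a median of 0.70 and 8 to 10 rises when 1 tumor was left out. CYP7A1 stood at 0.110, 0.0962 and 0.0513 CPM with lenvatinib, close to the level of 3 counts, and at 9.68, 9.88 and 4.29 CPM with the combination. These were 9 and 761 pooled counts, a ratio of 90.2 with a 95% interval of 47.3 to 198 that covers counting error only, and the log2 change was 6.49 ± 0.65 (adjusted p = 4.21e-05). CYP8B1, the sterol 12-alpha-hydroxylase that directs synthesis to cholic acid, stood at 0.493, 0.674 and 0.744 against 3.04, 2.35 and 1.83 CPM (1.91 ± 0.52, adjusted p = 0.0123). Neither gene overlapped between groups. CYP27A1, which starts the alternative pathway, stood at 106, 105 and 82.7 against 241, 244 and 210.4 CPM (1.25 ± 0.18). AKR1D1, the steroid 5-beta-reductase, stood at 8.88, 7.35 and 4.41 against 114, 97.7 and 65.9 CPM (3.75 ± 0.44, adjusted p = 0.000124). Both were higher in every combination tumor. The conjugating enzyme BAAT (0.30 ± 0.18, adjusted p = 0.212) and CYP7B1 (-0.21 ± 0.12, adjusted p = 0.172) did not pass the test.

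Bile acid sensing and transport showed 11 rises and 2 falls among 16 tested (median 0.92), with 7 rises when lenvatinib replicate 1, combination replicate 1 or combination replicate 2 was left out. NR0B2, the repressor SHP that the bile acid receptor FXR induces, stood at 33.9, 36.9 and 36.5 CPM with lenvatinib and 7.27, 14.4 and 15.4 CPM with the combination (-1.53 ± 0.31, adjusted p = 0.00273). NR1H4, which encodes FXR, stood at 60.2, 61.7 and 52.5 against 109.9, 123 and 116 CPM (1.00 ± 0.13, adjusted p = 0.000116). The receptor and its induced repressor thus lay on opposite sides of the lenvatinib range in all 3 combination tumors. ABCB11, the canalicular bile salt export pump, was at 5 pooled counts with lenvatinib and 208 with the combination, a ratio of 44.4 (95% counting interval 18.7 to 138), and combination replicate 1 at 3.70 CPM held most of them. SLC51B, 1 subunit of the basolateral bile acid exporter, stood at 3.75, 3.78 and 2.90 against 0.569, 0.691 and 1.65 CPM (-1.80 ± 0.41). ABCC3, another basolateral exporter, rose by 1.53 ± 0.19, and the sterol exporter genes ABCG5 and ABCG8 by 1.03 ± 0.14 and 1.01 ± 0.16.

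Transcripts of secreted hepatocyte products rose broadly. Of 42 tested plasma protein genes, 32 rose and 3 fell (median 1.23), and leaving out any 1 tumor gave 30 to 33 rises. KNG1, the kininogen precursor, stood at 232, 208 and 173 CPM with lenvatinib and 1913, 1947 and 1415 CPM with the combination (3.11 ± 0.26, adjusted p = 1.74e-05). HRG, histidine-rich glycoprotein, stood at 7.70, 7.28 and 6.03 against 117, 129 and 93.9 CPM (4.02 ± 0.30). APOC3, an apolipoprotein of triglyceride-rich particles, stood at 95.8, 91.1 and 67.4 against 1312, 1060.0 and 595 CPM (3.54 ± 0.41). No lenvatinib tumor reached the lowest combination tumor for any of these. ALB, the main carrier protein of plasma, rose by 0.92 ± 0.17 (adjusted p = 0.00115) and its fetal relative AFP by 0.92 ± 0.20 (adjusted p = 0.00315).

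Acute phase genes, which hepatocytes make in response to IL6, gave 14 rises and 0 falls among 16 tested, with a median of 1.77. HP, FGA, FGB, FGG and SERPINA3 are also in the plasma protein list. SAA1, SAA2, HAMP and SOCS3 were too low to test. Their pooled counts with lenvatinib and the combination were 9 and 5, 10 and 7, 4 and 14, and 0 and 1. The fibrinogen chain FGB stood at 339, 343 and 254 CPM with lenvatinib and 3129, 2509 and 1856 CPM with the combination (3.00 ± 0.38). Haptoglobin (HP), which binds free hemoglobin, stood at 5.51, 5.90 and 6.72 against 101, 52.6 and 32.3 CPM (3.35 ± 0.56), and the IL6 receptor subunit IL6R rose by 1.15 ± 0.20. HP varied widely among combination tumors, yet its lowest value there exceeded every lenvatinib tumor.

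Of 19 tested transcription factors of hepatocytes, 8 rose and 1 fell, with 2 falls without lenvatinib replicate 1, and the median was 0.15 (0.04 with library totals). ONECUT1 stood at 32.0, 25.9 and 30.4 CPM with lenvatinib and 61.3, 71.0 and 58.9 CPM with the combination (1.11 ± 0.11, adjusted p = 2.47e-05), whereas its paralog ONECUT2 fell by 0.76 ± 0.13. NR1I3, the xenobiotic sensor CAR, rose by 1.82 ± 0.34 and CEBPA by 0.73 ± 0.15. HNF4A stood at 382, 407 and 357 against 475, 467 and 480.5 CPM, higher in all 3 combination tumors. Its rise of 0.31 ± 0.09 (adjusted p = 0.0162) lost the call without lenvatinib replicate 3 (adjusted p = 0.0694) and with library totals (adjusted p = 0.0603). FOXA1 (-0.05 ± 0.16, adjusted p = 0.842) did not pass.

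**Figure D3:**
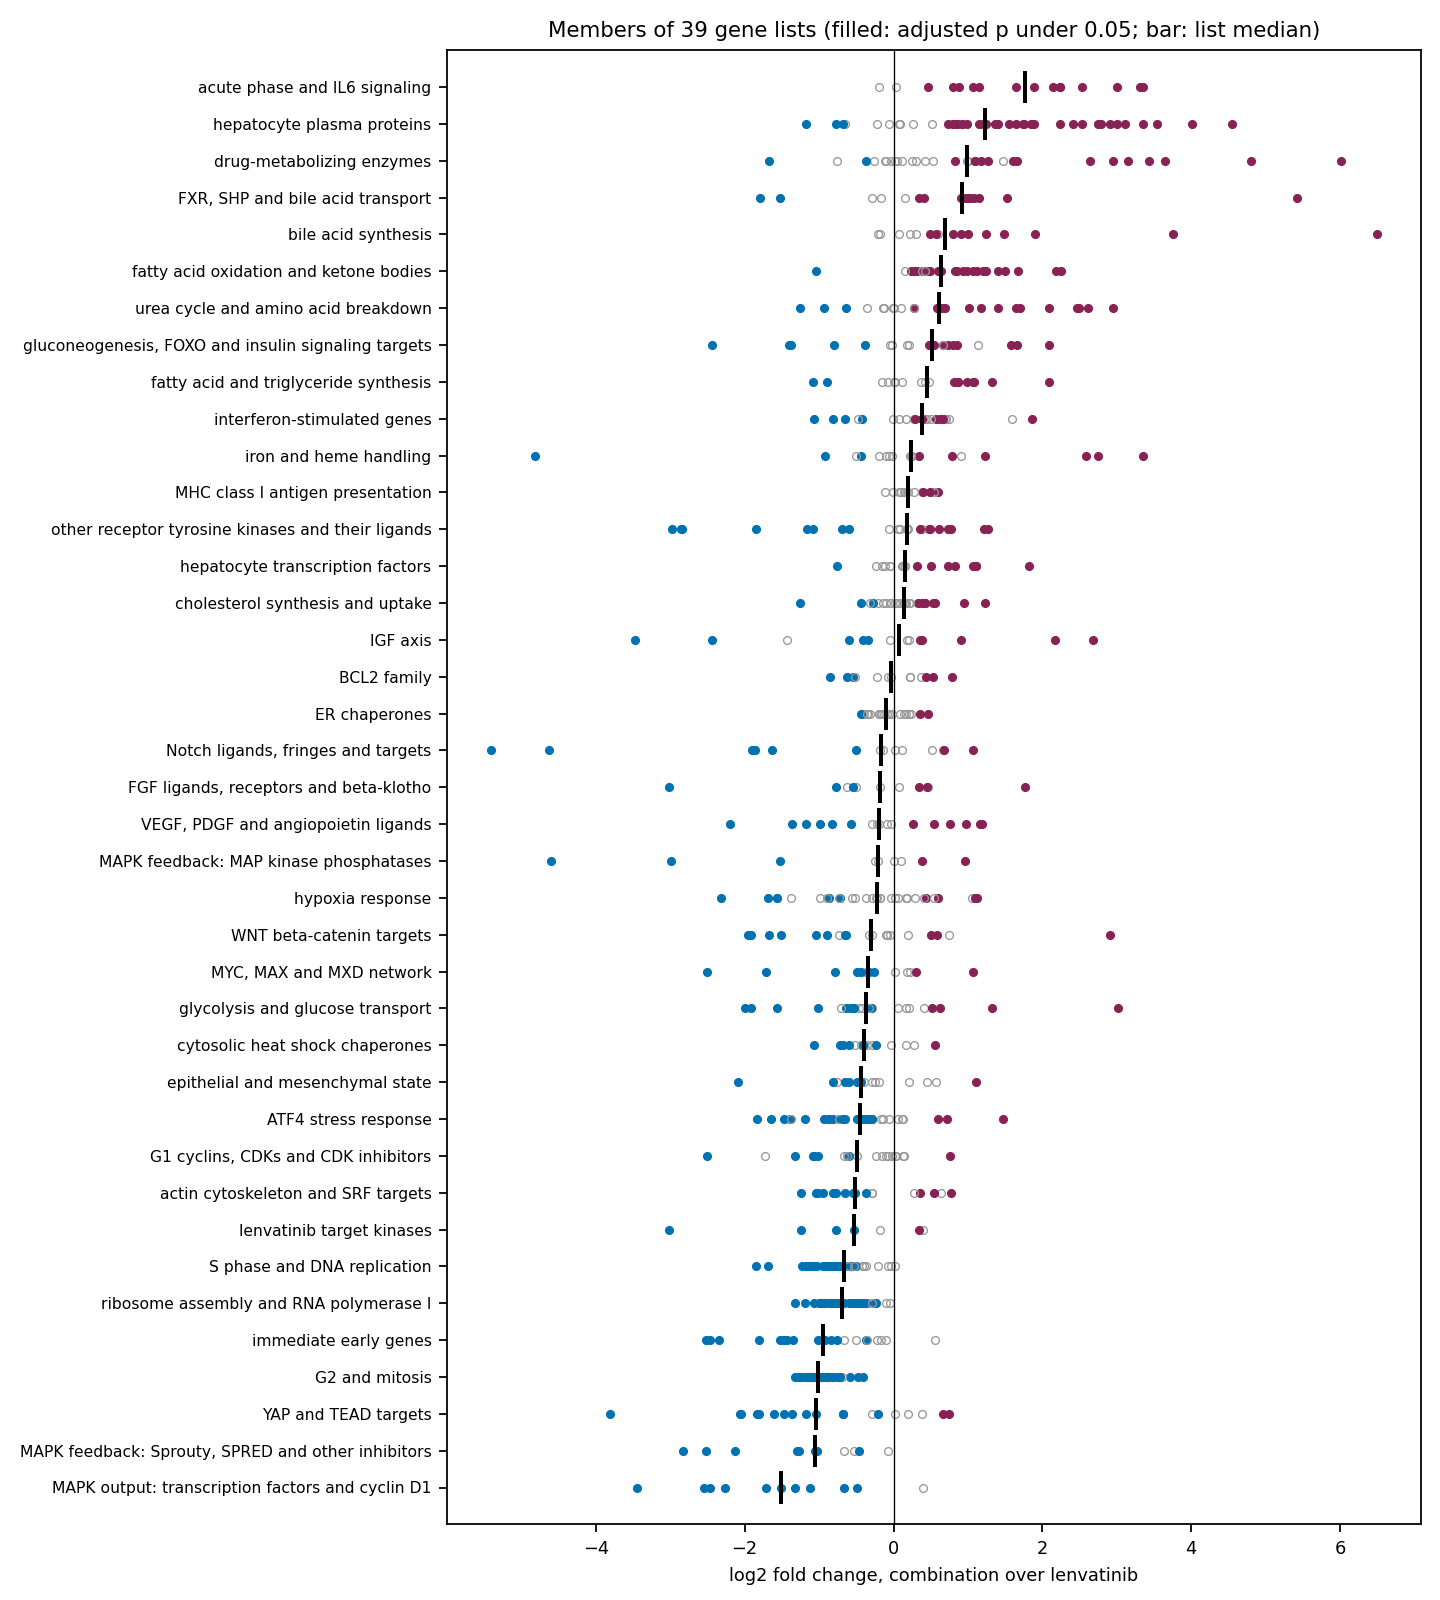
Log2 fold change of the combination over lenvatinib (x axis) for the tested members of 39 gene lists (rows), with filled points at an adjusted p under 0.05 and a bar at each list's median. Acute phase genes and plasma proteins have the highest medians (1.77 and 1.23), and MAPK transcription factors the lowest (-1.52).

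Metabolic enzymes of the hepatocyte followed, with nitrogen disposal among them. In the urea cycle and amino acid breakdown list 16 of 26 tested members rose and 3 fell (median 0.62). CPS1, the entry enzyme of the urea cycle, stood at 1002, 843 and 779 CPM with lenvatinib and 5442, 5449.9 and 3635 CPM with the combination (2.47 ± 0.27, adjusted p = 7.01e-05). NAGS, which makes the activator that CPS1 requires, stood at 5.70, 4.88 and 4.03 against 47.0, 39.5 and 26.0 CPM (2.94 ± 0.33). Groups were apart for both. ASS1, the next cytosolic step, rose by 1.64 ± 0.26, while ARG2, the mitochondrial arginase, fell by 0.93 ± 0.19.

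Fatty acid oxidation and ketone body genes gave 23 rises and 1 fall among 27 tested (median 0.63), with 16 to 21 rises when 1 tumor was left out. CPT1A, the mitochondrial gate for long-chain fatty acids, stood at 42.1, 35.3 and 41.7 CPM with lenvatinib and 219, 204 and 120.1 CPM with the combination (2.19 ± 0.47, adjusted p = 0.00435). PPARA, the fatty acid sensor that drives this program, rose by 1.07 ± 0.19 and the peroxisomal enzyme EHHADH by 1.40 ± 0.18. Every combination tumor was higher for all 3. The single fall was PDK4, a kinase that shuts off pyruvate dehydrogenase (-1.05 ± 0.37, adjusted p = 0.0418), which lost the call when any of 5 tumors was left out (adjusted p from 0.0795 to 0.183; it kept the call only without lenvatinib replicate 1) and without the expression filter (adjusted p = 0.0744).

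Transcripts of lipid synthesis were mixed. Of 18 tested genes of fatty acid and triglyceride synthesis 8 rose and 2 fell (median 0.45). Leaving out any tumor but combination replicate 2 left 1 fall. DGAT2, the last step of triglyceride synthesis, stood at 30.1, 30.3 and 22.3 CPM with lenvatinib and 122, 131 and 101 CPM with the combination (2.09 ± 0.22), and MLXIPL, the carbohydrate sensor ChREBP, rose by 1.06 ± 0.13. ELOVL6, a fatty acid elongase, fell by 1.08 ± 0.19, and the synthase FASN did not pass (0.12 ± 0.13, adjusted p = 0.519). Cholesterol synthesis and uptake gave 8 rises and 3 falls among 25 (median 0.14), against 19.1% and 20.9% of all genes. There were 5 rises without lenvatinib replicate 3. The synthetic enzymes LSS and TM7SF2 rose by 0.95 ± 0.09 and 1.23 ± 0.20.

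Insulin receptor substrates moved in opposite directions. IRS1 stood at 82.6, 67.4 and 73.2 CPM with lenvatinib and 244, 235 and 189 CPM with the combination (1.58 ± 0.14, adjusted p = 1.38e-05). IRS2 stood at 116, 279.9 and 275 against 84.6, 96.8 and 73.2 CPM (-1.40 ± 0.27, adjusted p = 0.00215). The groups did not overlap for either, although lenvatinib replicate 1 came close to the combination tumors for IRS2. The list of gluconeogenesis, FOXO and insulin targets held 9 rises and 5 falls among 20 (median 0.51), with 5 and 3 when lenvatinib replicate 3 or combination replicate 1 was left out. FOXO1 fell by 1.38 ± 0.19 and its target IGFBP1, a growth factor binding protein, changed by -2.43 ± 0.47.

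Drug-metabolizing enzymes gave 14 rises and 2 falls among 31 tested (median 0.99). Beside CYP3A7, the leukotriene hydroxylase CYP4F3 stood at 19.3, 14.7 and 13.1 CPM with lenvatinib and 198, 179 and 133 CPM with the combination (3.44 ± 0.31, adjusted p = 2.29e-05). CYP2B6, which metabolizes many drugs, stood at 9.23, 10.8 and 10.3 against 2.34, 2.90 and 4.17 CPM (-1.67 ± 0.42, adjusted p = 0.00847). The 2 cytochromes lay on opposite sides, each without overlap. Falls in this list numbered 4 without lenvatinib replicate 3 and 1 without lenvatinib replicate 1 or 2 or combination replicate 1 or 2.

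Proliferation genes fell. Of 42 tested G2 and mitosis genes 40 fell and 0 rose, against 20.9% and 19.1% of all genes, with a median of -1.02, and leaving out 1 tumor gave 29 to 42 falls. BUB1B, a spindle checkpoint kinase, stood at 179, 180.3 and 158 CPM with lenvatinib and 64.3, 67.0 and 89.4 CPM with the combination (-1.23 ± 0.17, adjusted p = 0.000246). CDK1, the mitotic kinase, stood at 41.9, 41.6 and 32.8 against 13.4, 15.9 and 19.7 CPM (-1.24 ± 0.23, adjusted p = 0.00158). In all 42 genes every combination tumor was below every lenvatinib tumor, as in 4710 of all 15836 genes, and combination replicate 3 was the highest of its group for both genes named. MKI67, the Ki-67 antigen, stood at 591, 510.1 and 503 against 230.4, 249 and 354 CPM. Its change of -0.94 ± 0.26 (adjusted p = 0.0144) lost the call without combination replicate 1 (adjusted p = 0.0585) or replicate 2 (adjusted p = 0.0533) and without the expression filter (adjusted p = 0.0570).

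S phase and DNA replication genes were called less uniformly, with 29 falls and 0 rises among 42 tested (median -0.66). The falls numbered 18 without lenvatinib replicate 1 or 2, 12 without combination replicate 1, 14 without combination replicate 2, and 15 without the expression filter, and they rose to 37 without combination replicate 3, so that leaving out 1 tumor gave 12 to 37. RRM2, the inducible subunit of ribonucleotide reductase, stood at 38.5, 47.6 and 32.6 CPM with lenvatinib and 10.6, 9.60 and 12.7 CPM with the combination (-1.84 ± 0.24, adjusted p = 0.000192). MCM7, part of the replicative helicase, stood at 263, 262 and 253 against 112, 132 and 161 CPM (-0.94 ± 0.20, adjusted p = 0.00358). Both were lower in all combination tumors. Among G1 regulators, 6 of 21 fell and 1 rose, against 20.9% and 19.1% of all genes. Leaving out 1 tumor gave 4 to 8 falls. The rise was the CDK inhibitor CDKN1C (0.75 ± 0.15), while CDKN2B, another CDK inhibitor, fell by 2.51 ± 0.35. CDK4 did not pass (0.02 ± 0.11, adjusted p = 0.901).

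Ribosome assembly and RNA polymerase I genes, many of them MYC targets, gave 36 falls and 0 rises among 40 tested (median -0.70), and 26 to 33 falls when 1 tumor was left out. DDX21, a nucleolar helicase, stood at 71.7, 95.5 and 86.5 CPM with lenvatinib and 35.4, 31.2 and 34.9 CPM with the combination (-1.32 ± 0.13, adjusted p = 2.36e-05). NOP56, a core protein of box C/D small nucleolar particles, stood at 236, 279.9 and 231 against 150.0, 125 and 139.5 CPM (-0.85 ± 0.10). POLR1A, the largest polymerase I subunit, fell by 0.54 ± 0.09. For DDX21 and NOP56 the spread within each group was narrow and no tumors crossed. In 36 of the 40 genes every combination tumor was below every lenvatinib tumor, as in 4710 of all 15836 genes.

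**Figure D4:**
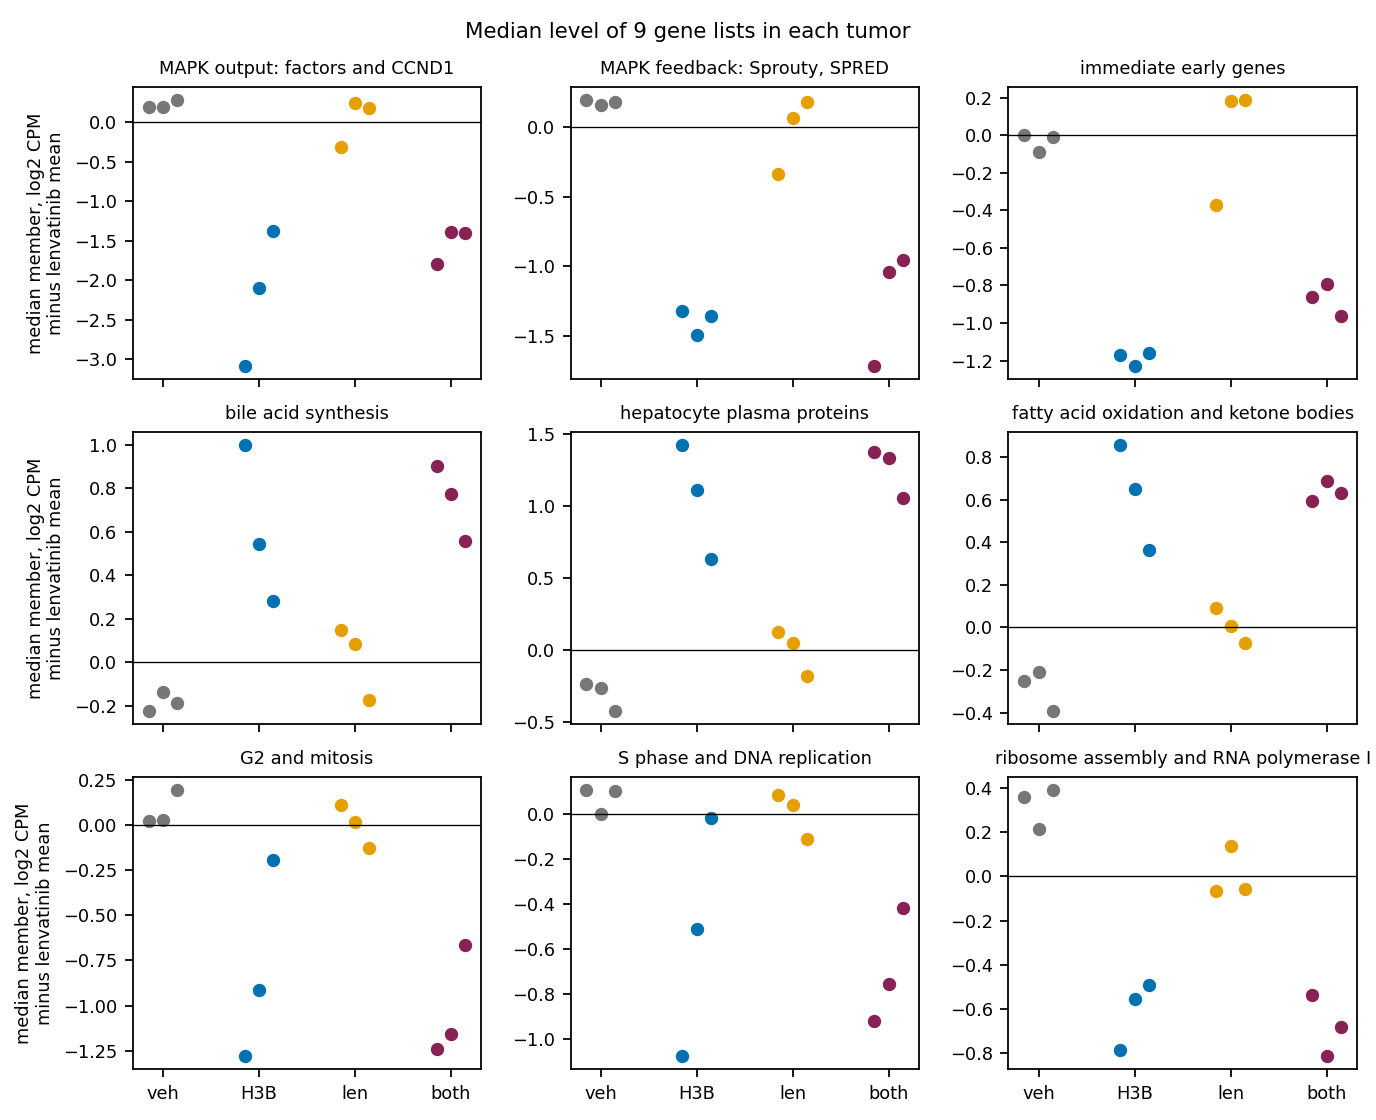
Median member of 9 gene lists in each of the 12 tumors (y axis, log2 CPM minus the gene's mean in lenvatinib tumors), for vehicle (veh), H3B-6527 (H3B), lenvatinib (len) and combination (both). Combination tumors lie apart from lenvatinib tumors in all 9 panels, for plasma proteins at 1.06 to 1.38 against -0.18 to 0.12 and for G2 and mitosis genes at -1.24 to -0.66 against -0.13 to 0.11.

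The glucose transporters of growing cells and of hepatocytes moved apart. Glycolysis and glucose transport gave 11 falls and 4 rises among 24 tested (median -0.37), with 6 falls without lenvatinib replicate 2, lenvatinib replicate 3 or combination replicate 2. HK2, the hexokinase of growing and tumor cells, stood at 139.7, 221 and 254 CPM with lenvatinib and 65.6, 43.8 and 53.7 CPM with the combination (-1.91 ± 0.22, adjusted p = 8.19e-05). SLC2A1, the widely expressed glucose transporter GLUT1, stood at 13.9, 15.7 and 24.5 against 6.04, 5.63 and 6.55 CPM (-1.57 ± 0.33). SLC2A2, the hepatocyte transporter GLUT2, stood at 18.3, 11.4 and 18.0 against 174, 134 and 79.4 CPM (3.02 ± 0.57, adjusted p = 0.00233). The groups were separate for all 3, in opposite directions for the 2 transporters. The muscle phosphofructokinase PFKM fell by 1.01 ± 0.10.

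Hypoxia genes as a list were close to the background of all genes, with 4 rises and 5 falls among 31 tested (median -0.22). Rises fell to 1 without lenvatinib replicate 2 or combination replicate 2 and to 2 without lenvatinib replicate 3, without the expression filter or with library totals. Falls grew to 8 without lenvatinib replicate 1, to 9 with library totals and to 10 with the 2 groups fitted alone. CA9, a carbonic anhydrase induced by low oxygen, stood at 9.94, 11.8 and 23.7 CPM with lenvatinib and 6.29, 4.42 and 4.60 CPM with the combination. All combination tumors were lower, but the test gave -1.57 ± 0.68 with an adjusted p of 0.0869, and 0.0323 with limma voom and 0.0116 with the 2 groups alone. VEGFA, the main ligand of the VEGF receptors, stood at 128, 160.5 and 182 against 149.5, 119.7 and 117 CPM and overlapped. Its change of -0.29 ± 0.14 (adjusted p = 0.111) passed without lenvatinib replicate 1 (adjusted p = 0.0296), without combination replicate 1 (adjusted p = 0.0483) and with library totals (adjusted p = 0.0446).

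The list of VEGF, PDGF and angiopoietin ligands, VEGFA included, split evenly, with 6 rises and 6 falls among 17 tested, and with 3 rises when either lenvatinib replicate 1 or 3 or combination replicate 1 or 2 was left out. PDGFA stood at 13.0, 18.6 and 16.2 CPM with lenvatinib and 6.61, 6.80 and 7.67 CPM with the combination (-1.18 ± 0.17, adjusted p = 0.000253). EFNB2, the arterial ephrin, stood at 2.96, 2.76 and 3.31 against 0.696, 0.553 and 0.711 CPM (-2.19 ± 0.23). PDGFA and EFNB2 were lower in all 3 combination tumors.

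Among the kinases that lenvatinib inhibits, 4 of 7 tested transcripts were lower with the combination than with lenvatinib. PDGFRA stood at 54.2, 54.4 and 65.6 CPM with lenvatinib and 22.8, 23.6 and 26.9 CPM with the combination (-1.25 ± 0.10, adjusted p = 1.14e-05). It is also a fibroblast marker, and 4 of 5 tested fibroblast markers fell, PDGFRA itself among them. The fibroblast gene DCN had 0 and 5 pooled counts with lenvatinib and the combination, where PDGFRA had 6231 and 2464. The part of fibroblasts in the PDGFRA value was not tested. FGFR1, FGFR2 and PDGFRB made up the rest. PDGFRB is also a marker of pericytes and smooth muscle, of which 4 of 8 tested fell, PDGFRB included, and 1 rose. These markers summed to 73.1 to 84.8 CPM with lenvatinib and 53.8 to 59.2 CPM with the combination. The part of such cells in the PDGFRB value was not tested. The single rise, FGFR3 (0.34 ± 0.11, adjusted p = 0.0248), lost the call when any 1 lenvatinib tumor or combination replicate 1 was left out (adjusted p from 0.0550 to 0.118) and with library totals (adjusted p = 0.0772). Other receptor tyrosine kinases and their ligands gave 8 rises and 8 falls among 23 (median 0.18), against 19.1% and 20.9% of all genes. The ligands HGF, for MET, and AREG, for the EGF receptor, stood at 2.25 to 5.54 and 3.31 to 10.7 CPM with lenvatinib and at 0.443 to 0.553 and 0.829 to 1.07 CPM with the combination, log2 changes of -2.85 ± 0.33 and -2.98 ± 0.44. EGFR itself stood at 351, 349 and 343 against 489, 495 and 461 CPM, a rise of 0.47 ± 0.11 (adjusted p = 0.00378). AREG and EGFR thus lay on opposite sides of the lenvatinib tumors. BTC, another EGF receptor ligand, went the other way from AREG. It had 34 and 75 pooled counts with lenvatinib and the combination, a ratio of 2.35 (95% counting interval 1.55 to 3.64). MET (-0.06 ± 0.09, adjusted p = 0.583) and ERBB3 (0.06 ± 0.15, adjusted p = 0.768) did not pass.

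Developmental signaling genes changed at particular members. In the Notch list 6 of 14 fell and 2 rose (median -0.16), against 20.9% and 19.1% of all genes. Beside LFNG, the ligand JAG1 stood at 47.4, 76.2 and 81.5 CPM with lenvatinib and 19.4, 17.3 and 19.6 CPM with the combination (-1.86 ± 0.18). The target HEY1 stood at 5.34, 19.6 and 18.5 against 0.696, 0.276 and 0.737 CPM (-4.62 ± 0.49). The receptor NOTCH1 rose by 1.07 ± 0.21. YAP and TEAD targets gave 13 falls and 2 rises among 19 (median -1.04), and leaving out combination replicate 1 gave 1 rise. NT5E, an ecto-nucleotidase, stood at 259, 279 and 223 against 56.6, 54.2 and 72.8 CPM (-2.05 ± 0.24). WNT targets gave 8 falls and 3 rises among 20, against 20.9% and 19.1% of all genes. There were 5 falls without lenvatinib replicate 1 or combination replicate 2. LGR5, a stem cell receptor, stood at 27.9, 28.5 and 38.5 against 11.1, 6.04 and 7.34 CPM (-1.95 ± 0.20), while RHBG, an ammonium transporter of pericentral hepatocytes, rose by 2.91 ± 0.29. JAG1, NT5E and LGR5 were each lower in every combination tumor.

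Amino acid stress genes controlled by ATF4 gave 18 falls and 3 rises among 30 tested (median -0.45), with 13 to 17 falls when 1 tumor was left out. SLC7A11, the cystine transporter, stood at 7.48, 8.40 and 9.39 CPM with lenvatinib and 2.56, 2.003 and 2.51 CPM with the combination (-1.83 ± 0.25, adjusted p = 0.000191). MTHFD2, a mitochondrial folate enzyme, stood at 8.63, 11.6 and 13.3 against 3.76, 3.73 and 4.57 CPM (-1.47 ± 0.18). ATF5, a factor of the same family, instead rose by 1.47 ± 0.24. Neither of the falls showed overlapping groups. In the BCL2 family, which sets the threshold for apoptosis, 3 of 13 rose and 3 fell (median -0.03, which became 0.02 without lenvatinib replicate 2 and -0.13 with library totals), with 1 fall without lenvatinib replicate 2, close to the 19.1% and 20.9% of all genes. BCL2L1, the survival protein BCL-XL, fell by 0.62 ± 0.12 (adjusted p = 0.00131), and BCL2L11, the pro-apoptotic BIM, rose by 0.53 ± 0.12 (adjusted p = 0.00338). The pro-apoptotic BBC3 (PUMA) went the other way, at -0.86 ± 0.31 (adjusted p = 0.0445), and lost the call when any 1 tumor but combination replicate 2 was left out (adjusted p from 0.0700 to 0.143), with DESeq2 (adjusted p = 0.0745) and without the expression filter (adjusted p = 0.0908). The survival protein MCL1 fell by 0.54 ± 0.15 (adjusted p = 0.0113, and 0.0534 without lenvatinib replicate 2), and the pro-apoptotic BAD rose by 0.79 ± 0.19.

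The effect of H3B-6527 on lenvatinib could also be set beside its effect on vehicle, since the 2 differences share no tumor. Across 15836 genes their log2 fold changes correlated with Pearson's r of 0.873 and Spearman's rho of 0.879, a description over genes, which are not independent replicates. On lenvatinib 6329 genes were called and on vehicle 7829. The 5590 called in both were 88.3% of the first list and 71.4% of the second, and all of them went the same way. The median absolute change of the genes called on lenvatinib was 0.66 there and 0.75 on vehicle, and 10414 of all genes (65.8%) were closer to no change on lenvatinib. A test of the difference between the 2 effects called 0 genes (0%) by edgeR, with 854 at an unadjusted p under 0.05 and a smallest adjusted p of 0.610. Limma voom called 0, with 888 unadjusted, and DESeq2 called 18, with an effect that was higher on lenvatinib for 13 and lower for 5. The 13 fell in both settings, but less on lenvatinib, and the 5 rose in both, but less on lenvatinib. The effect was thus closer to no change on lenvatinib for each of the 18. H3B-6527 tumors varied most, where edgeR's estimate of the variation between tumors came to 21.5% of a gene's level, compared to 10.7% under lenvatinib and 11.1% under the combination. Without H3B-6527 replicate 3, the smallest library at 23.8 M counts, edgeR still called 0 and gave 1568 unadjusted.

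**Figure D5:**
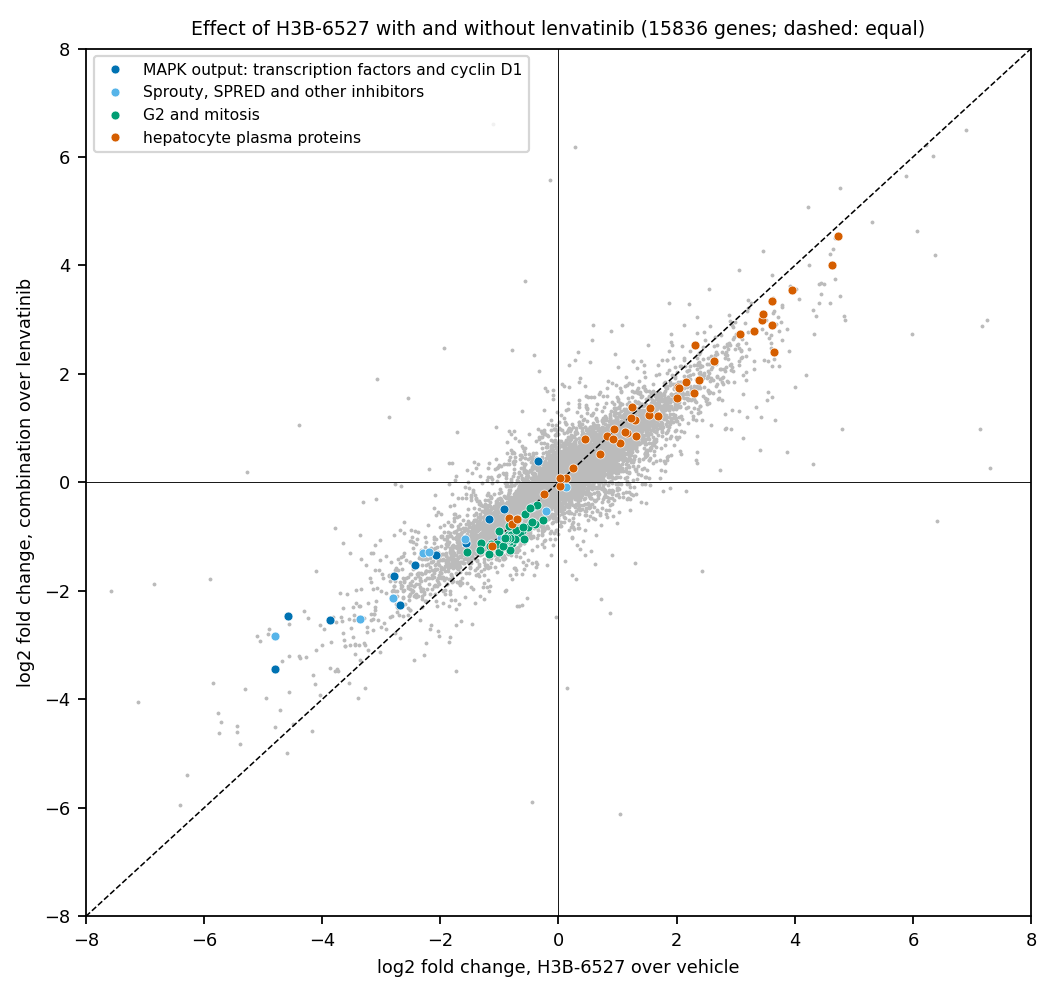
Log2 fold change of the combination over lenvatinib (y axis) against that of H3B-6527 over vehicle (x axis) for 15836 genes (grey), with 4 lists in color and a dashed line of equality. MAPK transcription factors lie above the line for 11 of 11 members and G2 and mitosis genes below it for 36 of 42, where 46.3% of all genes lie above it, though edgeR called 0 single genes as different.

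Genes with the smallest p in that difference were LRP11, NPAS2, NAT8 and HLF, none past the edgeR threshold (adjusted p = 0.610 for each). LRP11, a membrane protein, rose from 28.1, 23.2 and 27.1 to 68.4, 71.2 and 68.6 CPM on lenvatinib (1.41 ± 0.08), and from 16.9, 17.8 and 17.3 to 72.1, 73.4 and 71.6 CPM on vehicle (2.06 ± 0.08). The levels with H3B-6527 were close in both settings, and the starting level was higher with lenvatinib. NPAS2, a circadian clock factor, changed by -1.04 ± 0.12 on lenvatinib and by -1.94 ± 0.12 on vehicle. MYC was at 48.3, 46.2 and 47.1 CPM with vehicle and 5.27, 7.13 and 8.38 CPM with H3B-6527 alone, a change of -2.78 ± 0.17, so that all 3 combination tumors held more MYC than any H3B-6527 tumor. The difference of 1.06 between the 2 falls had an adjusted p of 0.686 by edgeR and 0.0248 by DESeq2. On lenvatinib and on vehicle the changes were -2.54 ± 0.27 and -3.87 ± 0.29 for ETV5, -2.99 ± 0.36 and -4.01 ± 0.39 for DUSP6, and -1.23 ± 0.17 and -1.03 ± 0.17 for BUB1B, with adjusted p for the difference of 0.768, 0.917 and 0.952. Against 65.8% of all genes, members were closer to no change on lenvatinib for 10 of 11 MAPK transcription factors, 39 of 40 ribosome assembly genes and 33 of 42 plasma proteins, against 7 of 42 S phase and 6 of 42 G2 and mitosis genes. H3B-6527 replicate 3 lay nearest the vehicle tumors for each of these lists. For G2 and mitosis its median member level was -0.19 against -1.28 and -0.91 in replicates 1 and 2. In the same order the levels were -0.02 against -1.07 and -0.51 for S phase and -1.38 against -3.09 and -2.10 for MAPK factors. They were -0.49 against -0.79 and -0.55 for ribosome assembly and 0.63 against 1.42 and 1.11 for plasma proteins. The part of H3B-6527 replicate 3 in the counts of these lists was not tested.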

How the data were processed

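RNA from 12 tumor fragments was sequenced, 1 library a tumor over 4 lanes. The authors deposited 1 table of estimated counts per gene, made with kallisto per the submitters' processing notes, which also list STAR and the builds GRCh37 and GRCm38; versions and the role of each are not given in the sources used here. Of 36292 genes, 9157 were at 0 in every tumor, and 40.3% of the values were not whole, so the deposited expected counts were rounded.

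All 12 libraries entered 1 fit with a term for each of the 4 groups in edgeR 4.0.16 (R 4.3.3): TMM scaling, filterByExpr at a minimum count of 10 (15836 genes kept), robust quasi-likelihood F-test, Benjamini-Hochberg adjustment over all genes tested and a threshold of 0.05. The SE of a log2 fold change is its size divided by the square root of F. CPM, a count divided by the scaled library size in M (1e+06) counts, is the level used. The code was tested on simulated data. Principal components and replicate comparisons found no duplicated library. Figures were drawn with matplotlib 3.10.9.

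Alternatives were no filter beyond 1 count, a minimum count of 50, library totals, RLE size factors, DESeq2 1.42.0, limma 3.58.1 voom, fits with fewer groups, and leaving out each tumor. Groups followed the treatment labels. The genes named as largest changes were the 15 in each direction with the largest fold among called genes at least 2-fold changed, without overlap between groups at a mean log2 CPM of 1 or more, leaving out read-through, clone, family-number and antisense names; the others came from the gene lists, and the genes named in the difference of effects were those with the smallest p. The comparison and the gene lists were chosen with earlier results of these data known. Intervals on pooled counts cover counting error only, and 3 counts correspond to 0.0733 to 0.0969 CPM. No sequence was used. A few of the genes that the naming rule selects are not reported here.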

Additional observations from a re-analysis of the deposited data

How the results depend on the processing

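Leaving out 1 of the 6 lenvatinib and combination tumors gave 2226 to 2797 higher genes, 2326 to 2975 lower genes, 780 to 1084 genes at least 2-fold higher and 714 to 930 at least 2-fold lower with the combination. The other alternatives kept these counts within 1.5 times, and 0 genes called in both settings reversed. Leaving out 1 vehicle or H3B-6527 tumor, which enter through the filter, the scaling and the shared estimate of spread, gave 2843 to 3513 higher and 3006 to 3938 lower, and fitting without the H3B-6527 group gave 3658 and 3907. For the difference between the effect of H3B-6527 on lenvatinib and on vehicle, DESeq2 called 18 genes where edgeR called 0. These were 13 falls and 5 rises that were smaller on lenvatinib. The cause of the difference between the 2 methods was not tested. Leaving out any 1 of the 12 tumors gave 0 to 0 by edgeR. Of 799 genes followed through 14 alternatives, 518 were called. Of these, 374 kept the call in every alternative that tested them, and 144 lost it in at least 1. A gene that an alternative's filter removed was not counted there. Among the 281 others, 92 gained the call. With 31.0 to 40.9 M counts a library, genes under about 0.1 CPM rest on 3 counts or fewer in a tumor, which limits the folds of CYP7A1, ABCB11, PPP1R1A and MMRN1.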
